A study of Mus musculus with 12 samples.

Results

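The proteasome genes described here were all protein-coding genes whose mouse symbol starts with Psm, continues with a letter from a to g and ends in a number. There were 48 such genes among the 55416 genes in each count table, and they were found by gene identifier. The proteasome degrades proteins that carry ubiquitin chains: a barrel-shaped core of alpha and beta rings holds the proteolytic sites, and a regulatory particle on its end binds the ubiquitin chain, unfolds the substrate and feeds it into the core. The beta subunits that cut can be exchanged for inducible ones to form the immunoproteasome, which prepares peptides for display on class I molecules of the major histocompatibility complex (MHC). In human embryonic stem cells, proteasome activity is known to be high and to decline as the cells differentiate, with the subunit PSMD11 as a factor that raises it. By role, the 48 genes were 7 constitutive alpha subunits (Psma1 to Psma7), the testis form Psma8, 7 constitutive beta subunits (Psmb1 to Psmb7), 3 immunoproteasome subunits (Psmb8, Psmb9 and Psmb10), the thymus form Psmb11, 6 ATPases of the regulatory particle (Psmc1 to Psmc6), 11 of its other subunits, 3 of its assembly chaperones (Psmd5, Psmd9 and Psmd10), 4 activators (Psme1 to Psme4), the inhibitor Psmf1 and 4 chaperones of core assembly (Psmg1 to Psmg4).

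The 12 libraries were prepared from Bl/6J mouse embryonic stem cells, 3 in each of 4 groups. C48S cells carry an Oct4 in which a cysteine is replaced by a serine and are a single derived line, clone 46, whereas WT cells are the parental line. RA cells had been kept for 2 days without LIF in medium with retinoic acid at 1.5 mg/L. Undifferentiated cells of both lines were grown with ascorbic acid and 2 inhibitors, PD03259010 at 1 µM against MEK and CHIR99021 at 3 µM against GSK3b. The labels list the inhibitors for undifferentiated cells alone. Effects of RA, of LIF withdrawal and of the inhibitors therefore cannot be told apart, and a change with RA means one between these groups. The treatment field lists days 2 to 7 for the 6 RA libraries, while titles and protocol give day 2, which was used. The labels do not state that libraries of a group came from separate cultures, so the p-values below measure the spread between libraries, which may be technical. A single amino acid change cannot be seen in counts per gene, so the genotype was not checked here.

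Libraries held 8678088 to 13597098 counts, and proteasome genes took 0.443 to 0.456% of them in C48S RA cells, 0.544 to 0.549% in WT RA cells, 0.557 to 0.625% in C48S undifferentiated cells and 0.725 to 0.741% in WT undifferentiated cells. Replicate 3 of the C48S undifferentiated group stood apart: its chi-square per degree of freedom against replicates 1 and 2 was 9.94 and 9.70, while no other pair of a group exceeded 2.26. In it 40 of the 47 tested proteasome genes lay above the mean of the other 2 libraries, by a median of 0.24 on the log2 scale, whereas 6831 of 13665 protein-coding genes at 1 CPM or more did. The median shift was 0.35 for the 14 proteasome genes with less than 2000 exonic bases and 0.098 for the 10 with at least 4000, beside 0.18 and -0.055 for all protein-coding genes of those lengths. For proteasome genes, changes of call without this library are given beside the results, with changes of size for some. Markers of naive stem cells summed to 687 to 728 CPM (counts scaled to a common library size) in C48S RA cells, 203 to 215 CPM in WT RA cells, 5585 to 5700 CPM in C48S undifferentiated cells and 5295 to 5409 CPM in WT undifferentiated cells. After RA all 8 of these markers were higher in C48S than in WT. All 6 markers of RA-differentiated cells rose with RA in both lines.

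**Figure D1:**
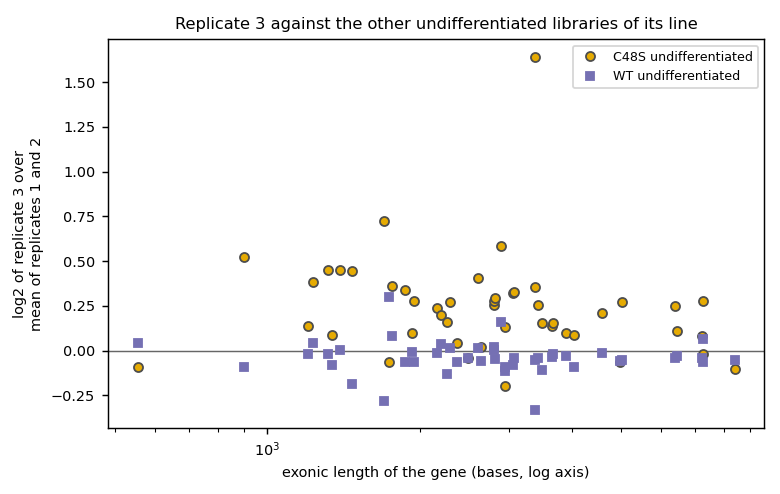
Log2 of the level in replicate 3 over the mean of replicates 1 and 2 of the undifferentiated cells for each of the 47 tested proteasome genes, against exonic length in bases on a log axis; circles are C48S and squares WT. In C48S 40 of 47 circles lie above 0, and the shorter genes lie higher, with a median of 0.35 below 2000 bases.

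Whether the proteasome genes differed between RA and undifferentiated cells was asked in each line. Nearly all genes of the constitutive proteasome were lower with RA in both. Of the 47 proteasome genes tested in C48S, 40 fell and 2 rose, where 34.6% and 39% of all 17940 genes tested fell and rose (73.6% in either direction). In WT 38 fell and 5 rose, where 37.4% and 40.9% of all genes did (78.3% in either direction). The median change was -0.63 on the log2 scale in C48S and -0.73 in WT, beside 0.049 and 0.055 over all genes. Summed over the 48 genes, the level was 4178, 4205 and 4028 CPM in C48S RA cells, against 5999, 6008 and 6796 CPM in C48S undifferentiated cells. In WT the sum was 4928, 4939 and 4859 CPM in RA cells, against 8379, 8459 and 8167 CPM in undifferentiated cells. In each line every RA library was below every undifferentiated one. Without replicate 3 of the C48S undifferentiated cells, 41 fell and 3 rose in C48S (33.5% and 38% of all genes), with a median of -0.50. In WT 39 fell and 5 rose without it (37.2% and 42.3% of all genes). The part that the shift in naive markers plays in these falls was not tested. In bulk RNA, fewer cells of a type and less RNA per cell cannot be told apart.

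**Figure D2:**
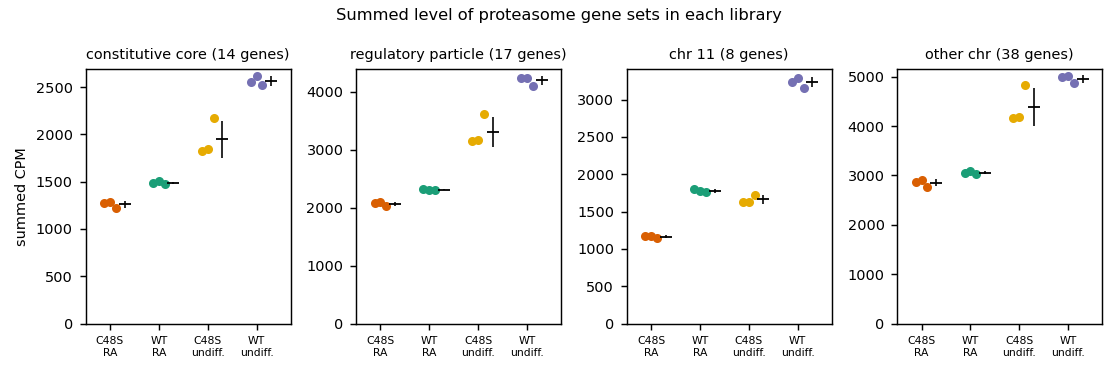
Summed CPM of 4 sets of proteasome genes in each library (points) with mean and SD to their right, for C48S RA, WT RA, C48S undifferentiated and WT undifferentiated cells; each vertical axis starts at 0. The 8 genes on chromosome 11 sum to 1629 to 1728 CPM in C48S undifferentiated cells and 3161 to 3296 CPM in WT undifferentiated cells, whereas RA libraries of each line lie below its undifferentiated libraries in all 4 panels.

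All 14 constitutive core subunits fell in C48S (log2 change -0.98 to -0.30) and 13 of 14 in WT (-1.43 to -0.45 among those called). Values after ± are the standard error of the fit. Psmb2, a beta subunit without a proteolytic site, was the one without a call in WT, at -0.12 ± 0.056 (SE), adjusted p = 0.0562. Without replicate 3 of the C48S undifferentiated cells Psmb2 passed there too, and all 14 core subunits fell in WT. The largest fall of a core gene in both lines was that of Psmb3, another beta subunit without a proteolytic site. Its level was 67.2, 71.2 and 65.5 CPM in C48S RA cells and 129, 121 and 151 CPM in C48S undifferentiated cells. In WT it was 103.9, 103 and 103 CPM with RA and 263, 291 and 280.1 CPM without. The RA and undifferentiated libraries did not overlap in either line, and the log2 change was -0.98 ± 0.063 (SE), adjusted p = 1.52e-15 in C48S and -1.43 ± 0.06 (SE), adjusted p = 6.16e-21 in WT. Psmb5, whose product carries the chymotrypsin-like site, changed by -0.60 ± 0.13 in C48S and -0.91 ± 0.13 in WT. In C48S Psmb5 had 70.3, 76.8 and 66.9 CPM with RA and 96.6, 92.5 and 136 CPM without, the highest in replicate 3. Psmb7, with the trypsin-like site, changed by -0.80 ± 0.061 in C48S and -0.76 ± 0.06 in WT, and both genes passed the test in both lines.

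All 17 subunits of the regulatory particle fell in both lines, by a median of -0.67 on the log2 scale in C48S and -0.92 in WT. The 6 ATPases, which form the unfolding ring, had a median of -0.92 in C48S and -1.18 in WT. Psmc1 had 98.2, 98.0 and 97.8 CPM in C48S RA cells, against 195, 199 and 211 CPM in C48S undifferentiated cells. WT RA cells had 97.7, 101 and 97.6 CPM, against 236, 240.2 and 237 CPM in WT undifferentiated cells. Both pairs of groups were wide apart, with log2 changes of -1.04 ± 0.049 (SE), adjusted p = 9.36e-20 in C48S and -1.26 ± 0.049 (SE), adjusted p = 2e-22 in WT. Psmc5 had 72.1, 71.7 and 74.3 CPM in C48S RA cells, against 125, 132 and 176 CPM in C48S undifferentiated cells. In WT it had 88.2, 81.9 and 83.8 CPM with RA, against 209, 209.7 and 210.1 CPM without. Here too no RA library reached an undifferentiated one of its line, and the log2 change was -0.98 ± 0.097 in C48S and -1.31 ± 0.095 in WT. Psmc4 changed alike in direction. It had 121, 118 and 113 CPM in C48S RA cells, against 208, 218 and 251 CPM in C48S undifferentiated cells, and 98.5, 93.6 and 95.3 CPM in WT RA cells, against 220.4, 221 and 219 CPM in WT undifferentiated cells (-0.94 ± 0.056 in C48S and -1.20 ± 0.057 in WT).

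Among the subunits without ATPase activity, the falls ran from -0.95 to -0.45 in C48S and from -1.16 to -0.28 in WT. Psmd14 encodes the deubiquitinase that removes the ubiquitin chain from a substrate. Its level was 70.5, 70.3 and 63.4 CPM in C48S RA cells, against 117, 121 and 146 CPM in C48S undifferentiated cells. In WT it was 86.3, 90.7 and 84.6 CPM with RA, against 162, 164 and 158 CPM without. No RA library overlapped an undifferentiated one of its line, the log2 change was -0.91 ± 0.066 in C48S and -0.89 ± 0.065 in WT, and the interaction did not pass (-0.025 ± 0.092 (SE), adjusted p = 0.86). Psmd13 had 70.2, 74.8 and 72.1 CPM in C48S RA cells, against 122, 135 and 164 CPM in C48S undifferentiated cells. In WT it had 64.0, 57.1 and 58.5 CPM with RA, against 121, 112 and 112 CPM without. Its groups likewise did not overlap, at -0.95 ± 0.079 in C48S and -0.94 ± 0.082 in WT. Psmd4, which encodes a ubiquitin receptor, changed by -0.67 ± 0.064 in C48S and -0.84 ± 0.063 in WT.

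The assembly chaperones were less uniform. Of the 4 core assembly chaperones, all fell in WT, and 2, Psmg1 and Psmg3, fell in C48S. Psmg1 had 27.5, 25.5 and 25.8 CPM in C48S RA cells, against 48.4, 45.6 and 49.9 CPM in C48S undifferentiated cells, and 31.9, 29.4 and 26.0 CPM in WT RA cells, against 72.4, 72.6 and 68.7 CPM in WT undifferentiated cells (-0.87 ± 0.08 in C48S and -1.29 ± 0.078 in WT). Psmg4 behaved differently in the lines. In C48S it had 8.07, 8.604 and 8.32 CPM with RA and 8.40, 7.67 and 7.55 CPM without, which overlap (0.075 ± 0.14 (SE), adjusted p = 0.639). In WT it had 8.50, 6.35 and 6.84 CPM with RA and 15.5, 16.5 and 16.5 CPM without, which do not (-1.17 ± 0.13 (SE), adjusted p = 6.64e-10). The call for Psmg3 in WT, -0.53 ± 0.2 (SE), adjusted p = 0.0151, was lost under 4 of the alternatives tried. Psmd5 and Psmd9, chaperones of the regulatory particle, fell in both lines, and Psmd10, also called gankyrin, fell in C48S (-0.67 ± 0.13 (SE), adjusted p = 2.61e-05) with a change of -0.21 ± 0.13 (SE), adjusted p = 0.127 in WT.

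**Figure D3:**
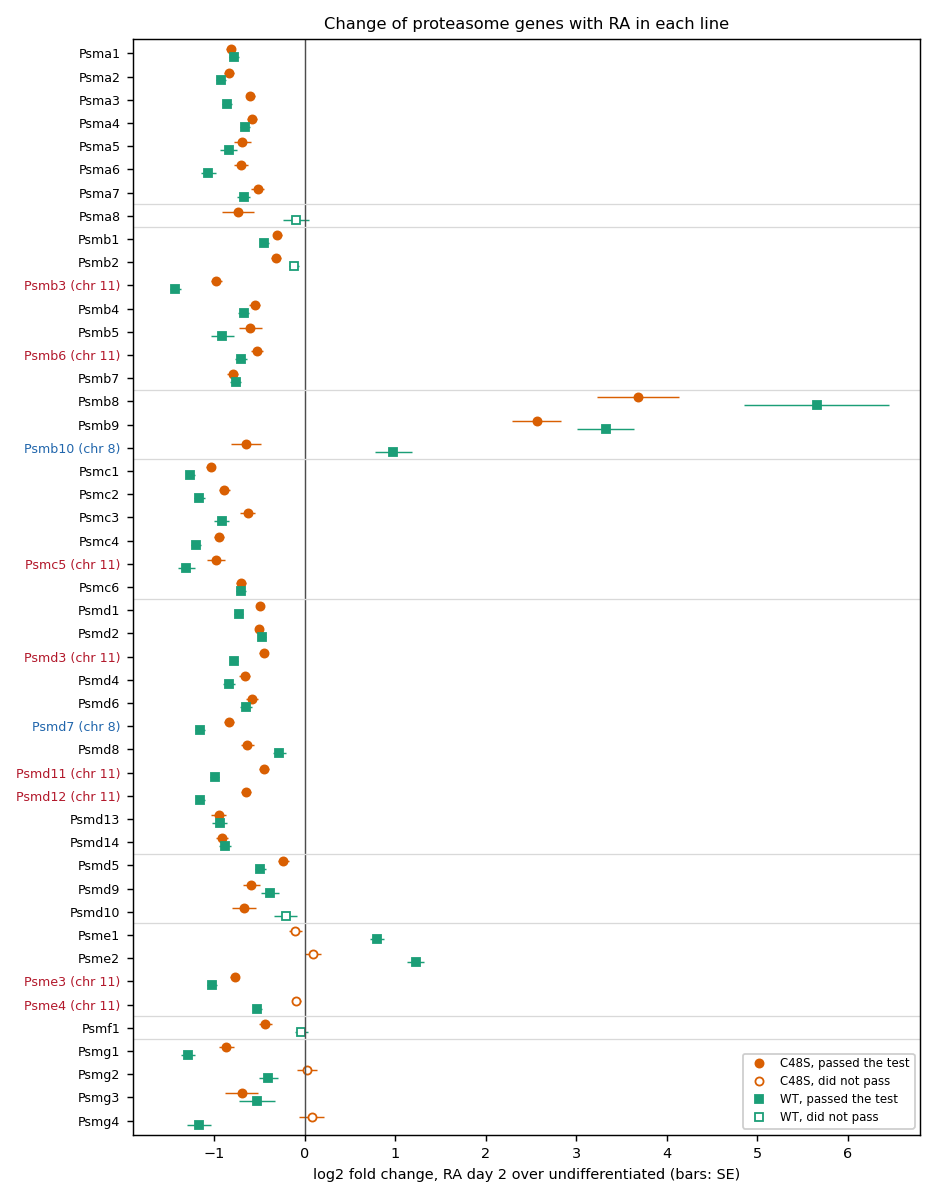
Log2 fold change of each tested proteasome gene between RA and undifferentiated cells, in C48S (circles) and WT (squares), with SE bars; filled symbols passed an adjusted p of 0.05, grey lines separate the roles, and names in red or blue are genes on chromosome 11 or 8. All 17 regulatory particle subunits lie left of 0 in both lines, and Psmb8 and Psmb9 lie far to the right, at 3.68 and 2.56 in C48S and 5.66 and 3.32 in WT.

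The inducible subunits Psmb8 and Psmb9 rose in both lines. Psmb8 replaces Psmb5 in the immunoproteasome and Psmb9 replaces Psmb6, the subunit with the caspase-like site. Psmb8 had 62, 61 and 94 counts in the 3 C48S RA libraries and 5, 1 and 8 counts in C48S undifferentiated cells. In WT it had 82, 83 and 60 counts with RA and 1, 2 and 1 counts without. Every RA library was far above every undifferentiated library of its line. Corrected for depth, the pooled counts rose 13.2-fold in C48S (95% counting interval 7.68 to 24.5) and 54.7-fold in WT (21.1 to 202), where the intervals cover counting error only. Psmb8 passed the test in both lines (adjusted p = 8.02e-12 in C48S and 2.71e-14 in WT), and the difference between the lines was -1.97 ± 0.92 (SE), adjusted p = 0.0503, which passed under 6 of the alternatives tried. Without replicate 3 of the C48S undifferentiated cells, the fitted log2 change of Psmb8 in C48S was 4.35, against 3.68 with it, and the difference between the lines was -1.32 (adjusted p = 0.271). Psmb9 had 7.61, 7.01 and 7.37 CPM in C48S RA cells, against 0.849, 1.598 and 1.34 CPM in C48S undifferentiated cells. The level was 8.70, 8.49 and 6.54 CPM in WT RA cells, against 0.629, 0.924 and 0.759 CPM in WT undifferentiated cells. Its groups did not overlap in either line, with log2 changes of 2.56 ± 0.27 (SE), adjusted p = 6.74e-12 in C48S and 3.32 ± 0.32 (SE), adjusted p = 7.06e-14 in WT. Of the 4 blood and immune markers that were tested, Cd74 (2.84 in C48S and 3.35 in WT) and Coro1a (1.44 in C48S and 2.44 in WT) rose with RA in both lines, and Laptm5 and Cd68 fell in both. Summed, the 8 genes of that list had 168 to 183 CPM in C48S RA cells, 85.6 to 93.4 CPM in WT RA cells, 340 to 443 CPM in C48S undifferentiated cells and 105 to 117 CPM in WT undifferentiated cells. The part of such cells in the rise of Psmb8 and Psmb9 was not tested.

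Psmb8 and Psmb9 lie beside the peptide transporter genes Tap1 and Tap2 in the MHC region of chromosome 17. In the files' GRCm39 coordinates Psmb9 is at chr17:34400961-34406738 on the minus strand, and its annotated start overlaps by 212 bases that of Tap1 at chr17:34406527-34416199 on the plus strand. Psmb8 follows at chr17:34416695-34420428 and Tap2 at chr17:34422501-34435295, both on the plus strand. All 4 genes rose with RA in both lines: Tap1 by 3.16 ± 0.11 in C48S and 3.91 ± 0.12 in WT, and Tap2 by 3.19 ± 0.19 in C48S and 3.52 ± 0.22 in WT. Counting used strand, so reads of the overlapping pair were kept apart. The stretch between the RefSeq starts of Psmb9 and Tap1 is shown because both starts lie at its ends, and the 250 bases before the start of Psmb8 because that gene showed the largest RA change of all members. Sequences are from RefSeq on GRCm38.p6, given 5′ to 3′ on the strand of the gene. The first is chr17:34187331-34187555 on the minus strand, with a CCAAT box read on the opposite strand (ATTGG) in capitals. The second is chr17:34197945-34198194 on the plus strand, with a match to TTCNNNGAA, the letters of a STAT element, in capitals.
Psmb9-Tap1 between the starts: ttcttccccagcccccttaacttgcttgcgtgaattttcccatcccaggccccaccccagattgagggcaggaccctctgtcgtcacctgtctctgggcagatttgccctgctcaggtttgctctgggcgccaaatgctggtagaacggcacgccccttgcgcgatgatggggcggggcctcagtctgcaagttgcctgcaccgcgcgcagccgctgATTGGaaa
Psmb8: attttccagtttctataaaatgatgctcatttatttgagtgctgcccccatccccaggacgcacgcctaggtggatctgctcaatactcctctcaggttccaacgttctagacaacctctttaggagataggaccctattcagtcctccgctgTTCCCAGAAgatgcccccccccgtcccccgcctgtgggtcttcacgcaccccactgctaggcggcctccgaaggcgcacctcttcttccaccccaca

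Psmb10, Psme1 and Psme2 passed the test as rises with RA in WT and not in C48S. Psmb10 (chr8:106662367-106665076, minus strand) replaces Psmb7, and Psme1 (chr14:55815580-55818986, plus strand) and Psme2 (chr14:55824898-55828570, minus strand) encode both subunits of the interferon-inducible activator ring. Psme1 and Psme2 are 5911 bases apart. Psmb10 had 13.99, 13.9 and 12.05 CPM in C48S RA cells and 16.4, 13.6 and 13.2 CPM in WT RA cells. It had 18.7, 15.8 and 28.4 CPM in C48S undifferentiated cells and 6.71, 8.57 and 6.29 CPM in WT undifferentiated cells. The WT undifferentiated cells alone were low, and both RA groups overlapped. With RA Psmb10 changed by -0.65 ± 0.17 (SE), adjusted p = 0.00181 in C48S and by 0.98 ± 0.2 (SE), adjusted p = 0.000192 in WT. The change in C48S was -0.38 (adjusted p = 0.00497) without replicate 3 of the C48S undifferentiated cells. Psme1 had 61.6, 66.4 and 60.3 CPM in C48S RA cells and 59.5, 66.2 and 59.5 CPM in WT RA cells. It had 67.2, 61.5 and 73.9 CPM in C48S undifferentiated cells and 37.2, 33.5 and 36.3 CPM in WT undifferentiated cells. Here too the WT undifferentiated cells were low and the RA groups overlapped, with -0.11 ± 0.071 (SE), adjusted p = 0.174 in C48S and 0.80 ± 0.077 (SE), adjusted p = 2.03e-11 in WT. Psme2 had 44.0, 45.5 and 41.8 CPM in C48S RA cells and 48.2, 48.1 and 47.95 CPM in WT RA cells. It had 39.0, 36.1 and 48.2 CPM in C48S undifferentiated cells and 20.2, 20.2 and 21.4 CPM in WT undifferentiated cells. RA changed it by 0.09 ± 0.084 (SE), adjusted p = 0.334 in C48S and by 1.23 ± 0.092 (SE), adjusted p = 2.41e-14 in WT. Without replicate 3 of the C48S undifferentiated cells, Psme2 also passed the test as a rise in C48S, at 0.22 (adjusted p = 0.0115). Psme2b, a near copy of Psme2 outside the rule, had 207 counts over the 12 libraries, so the reads of this pair could have been split.

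**Figure D4:**
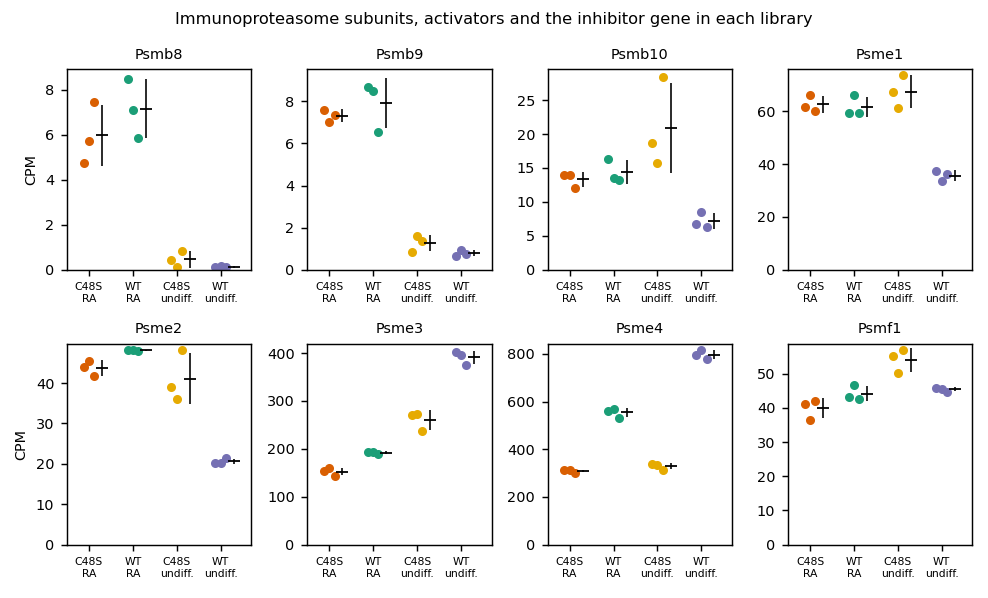
CPM of the immunoproteasome subunits, activators and the inhibitor gene in each library (points) with mean and SD to their right; each vertical axis starts at 0. Psmb8 and Psmb9 are high in both RA groups, Psmb10, Psme1 and Psme2 are low in WT undifferentiated cells alone, and Psme4 reaches 779 to 815 CPM in WT undifferentiated cells against 314 to 338 CPM in C48S undifferentiated cells.

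Both other activators lie on chromosome 11. Psme3, which encodes a nuclear activator ring, had 153, 159 and 144 CPM in C48S RA cells, against 270.3, 273 and 237 CPM in C48S undifferentiated cells. In WT it had 193, 194 and 189 CPM with RA, against 402, 397 and 375 CPM without. It fell in both lines without overlap, at -0.78 ± 0.053 in C48S and -1.03 ± 0.052 in WT. Psme4, which encodes a large single-chain activator, had 313, 311 and 302 CPM in C48S RA cells, against 338, 335 and 314 CPM in C48S undifferentiated cells. WT RA cells had 563, 567 and 533 CPM of it, against 797, 815 and 779 CPM in WT undifferentiated cells. It fell in WT (-0.52 ± 0.045 (SE), adjusted p = 9.23e-13), whereas in C48S the RA libraries were below the undifferentiated ones by little and the test was missed (-0.093 ± 0.046 (SE), adjusted p = 0.0667). Without replicate 3 of the C48S undifferentiated cells it passed, at -0.12 (adjusted p = 0.00253). Psmf1, the proteasome inhibitor, had 41.1, 36.6 and 42.2 CPM in C48S RA cells, against 55.2, 50.2 and 56.9 CPM in C48S undifferentiated cells. The WT libraries had 43.1, 46.8 and 42.7 CPM with RA, against 45.9, 45.5 and 44.8 CPM without. Psmf1 fell in C48S (-0.44 ± 0.074 (SE), adjusted p = 3.29e-06), while in WT its groups overlapped (-0.037 ± 0.076 (SE), adjusted p = 0.658). Psma8, the testis form of an alpha subunit, was low at 4.84, 4.77 and 3.57 CPM in C48S RA cells and 6.36, 8.52 and 7.24 CPM in C48S undifferentiated cells. In WT Psma8 had 11.3, 10.7 and 8.69 CPM with RA and 10.4, 11.7 and 10.7 CPM without. It fell in C48S (-0.74 ± 0.17 (SE), adjusted p = 0.000275), with -0.10 ± 0.14 (SE), adjusted p = 0.532 in WT. Psmb11, the thymus form, had 0 to 4 counts in every library and was not tested. The 3 counts that a count of 0 allows correspond to 0.231 to 0.325 CPM per library.

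The comparison of C48S with WT in the undifferentiated state asked how the lines differ before RA. Of the 47 proteasome genes tested, 29 were lower in C48S and 7 were higher, where 28.1% and 27.5% of all genes were (55.6% in either direction). The median was -0.26 on the log2 scale, beside 0.0014 over all genes. The 7 higher genes were Psmb10, Psme2, Psme1, Psmd8, Psmd7, Psmd13 and Psmf1. All 7 constitutive alpha subunits were lower, with changes of -0.37 to -0.16, and 4 of 7 constitutive beta subunits were. The call for Psma5 (-0.24 ± 0.092 (SE), adjusted p = 0.0334) was lost under 9 of the alternatives tried, whereas without replicate 3 of the C48S undifferentiated cells it was -0.40 (adjusted p = 5.9e-10). In the regulatory particle 12 of 17 subunits were lower and 3 were higher. Without replicate 3 of the C48S undifferentiated cells the counts were 31 lower, with Psmb4 and Psmb5 added, and 7 higher, and Psmd13 was at 0.16, against 0.29 with it. Of all genes 27.9% were lower and 27.2% higher in that fit.

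Of the 7 lowest ratios, 6 were those of genes on chromosome 11. Cultured stem cell lines can gain or lose chromosome copies, and genes of chromosomes 6, 8 and 11 differed between these lines as a whole. The median over 1229 protein-coding genes of chromosome 11 was -0.48 in RA cells and -0.53 in undifferentiated cells, C48S over WT. Over 707 genes of chromosome 6, which holds no proteasome gene, it was 0.63 in RA cells and 0.58 in undifferentiated cells. Over 785 genes of chromosome 8 it was 0.57 in RA cells and 0.51 in undifferentiated cells. The proteasome genes fall as 8 on chromosome 11 (Psmb3, Psmb6, Psmc5, Psmd3, Psmd11, Psmd12, Psme3 and Psme4), 2 on chromosome 8 (Psmb10 and Psmd7), 0 on chromosome 6 and 38 elsewhere. All 8 genes of chromosome 11 were lower in C48S undifferentiated cells, where 64.8% of that chromosome's genes were, and their median was -0.96. Of the 37 tested elsewhere, 21 were lower and 5 were higher, with a median of -0.24. A change of the chromosome and a change of the genes themselves cannot be told apart from these counts.

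Psme4 (chr11:30721726-30830361, plus strand) had the lowest ratio of all members, with the levels given above and no overlap between the lines (-1.27 ± 0.045 (SE), adjusted p = 1.18e-22). Psmb6 (chr11:70416193-70418684, plus strand) had 152, 164 and 199.99 CPM in C48S undifferentiated cells, against 358, 359 and 343 CPM in WT undifferentiated cells. All C48S libraries were below all WT ones (-1.04 ± 0.064 (SE), adjusted p = 2.23e-13), as they were for Psmb3 (chr11:97594225-97604326, plus strand; -1.06 ± 0.059 (SE), adjusted p = 8.15e-17). Psmd3 (chr11:98573380-98586805, plus strand), a scaffold subunit of the regulatory particle lid, had 236, 225 and 221 CPM in C48S undifferentiated cells, against 449, 453 and 433 CPM in WT undifferentiated cells (-0.97 ± 0.046 (SE), adjusted p = 5.93e-19). Psmd12 (chr11:107370310-107395188, plus strand), another lid subunit, had 134, 128 and 133 CPM in C48S undifferentiated cells, against 256, 258 and 246 CPM in WT undifferentiated cells (-0.95 ± 0.052 (SE), adjusted p = 2.51e-17). Both lid genes were separated without overlap. Psmd11 (chr11:80319441-80364074, plus strand), a lid subunit too, had 244, 256 and 296 CPM in C48S undifferentiated cells, against 501, 515 and 495 CPM in WT undifferentiated cells (-0.93 ± 0.052 (SE), adjusted p = 4.83e-17). Psmc5 (-0.54 ± 0.092 (SE), adjusted p = 0.000138) and Psme3 (-0.59 ± 0.052 (SE), adjusted p = 5.69e-12) were closer to the chromosome's median. For Psmc5 this leans on replicate 3 of the C48S undifferentiated cells. It had 125 and 132 CPM in replicates 1 and 2 and 176 CPM in replicate 3, against 209 to 210 CPM in WT.

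On chromosome 8, Psmd7 (chr8:108307013-108315096, minus strand), the lid partner of the deubiquitinase Psmd14, had 188, 184 and 207 CPM in C48S undifferentiated cells, against 145, 144 and 132 CPM in WT undifferentiated cells (0.46 ± 0.054 (SE), adjusted p = 4.66e-09). It was close to that chromosome's median. Psmb10 was well above it, at 1.52 ± 0.2 (SE), adjusted p = 1.04e-06, and C48S exceeded WT in every library. Psme1 (0.92 ± 0.077 (SE), adjusted p = 1.25e-12) and Psme2 (1.00 ± 0.094 (SE), adjusted p = 2.24e-11), on chromosome 14, were higher too, with no overlap of the lines. Psmb8 and Psmb9 did not pass the test (1.71 ± 0.9 (SE), adjusted p = 0.0618; 0.65 ± 0.38 (SE), adjusted p = 0.138), and the pooled counts of 14 for Psmb8 in C48S and 4 in WT give a ratio of 3.48 with a 95% counting interval of 1.09 to 14.5. Psmb8 passed the test without replicate 2 of the C48S undifferentiated cells, whereas without replicate 3, which holds 8 of the 14 counts, its change was 1.06 (adjusted p = 0.334). Among genes of other chromosomes, Psmg4 was lower without overlap (-1.03 ± 0.13 (SE), adjusted p = 1.86e-08), and so were Psmg2 (-0.68 ± 0.11 (SE), adjusted p = 2.12e-06) and Psmg1 (-0.57 ± 0.074 (SE), adjusted p = 3.36e-08). Psmg1 lies on chromosome 16, whose protein-coding genes had a median of -0.16, with 43.3% lower and 18.2% higher in C48S.

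Markers of feeder fibroblasts summed to 461 to 618 CPM in C48S undifferentiated cells, the highest in replicate 3, and 341 to 372 CPM in WT undifferentiated cells. Of these 10 genes 5 were higher and 3 were lower in C48S, where 27.5% and 28.1% of all genes were. Most of the sum of blood and immune markers given above came from Laptm5, with 317 to 418 CPM in C48S undifferentiated cells and 83.5 to 90.9 CPM in WT undifferentiated cells. Of the 4 genes of this list that were tested, Laptm5 and Coro1a were higher in C48S (2.10 and 2.09 on the log2 scale), and Cd74 and Cd68 had no call. Ptprc, Tyrobp, Cd52 and Lyz2, which mark blood cells, were below 1 CPM in every library. The part of these cells in the levels of Psmb10, Psme1 and Psme2 was not tested.

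**Figure D5:**
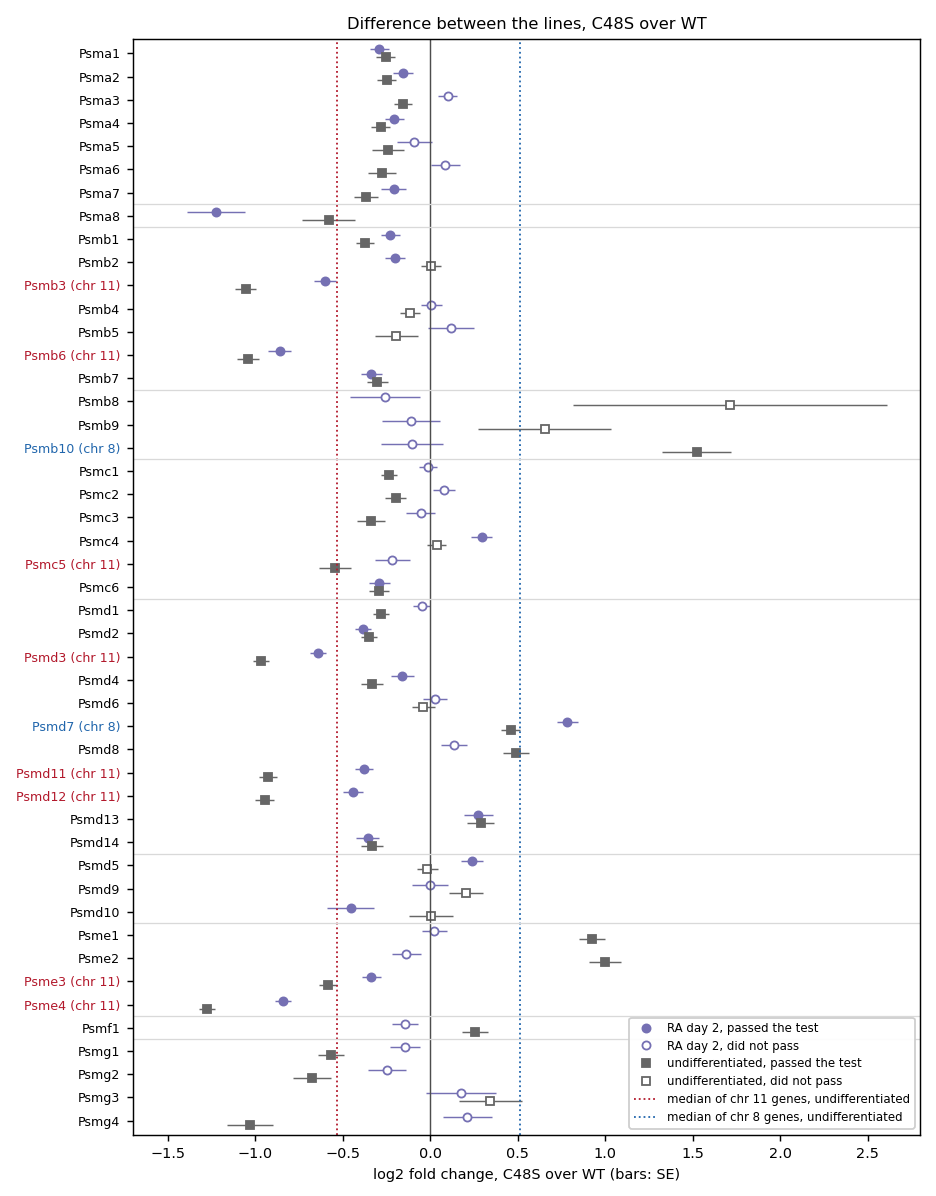
Log2 fold change of each tested proteasome gene between C48S and WT, in RA cells (circles) and undifferentiated cells (squares), with SE bars; filled symbols passed an adjusted p of 0.05. Names in red are on chromosome 11 and in blue on chromosome 8, and dotted lines mark those chromosomes' medians in undifferentiated cells, -0.53 and 0.51; all 8 red genes lie left of 0 in both states.

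After RA the same comparison gave fewer calls among the proteasome genes. Of the 47 genes, 20 were lower in C48S and 4 were higher, where 25.7% and 28.8% of all genes were (54.5% in either direction), and the median was -0.15, beside 0.023 over all genes. On chromosome 11, 7 of 8 were lower, with a median of -0.52, and 69% of that chromosome's genes were lower. The exception was Psmc5 at -0.22 ± 0.1 (SE), adjusted p = 0.0815, which had no overlap between the lines and passed the test under several alternatives, among them DESeq2 and leaving out replicate 3 of the C48S undifferentiated cells. Elsewhere 13 of 37 were lower and 3 were higher, with a median of -0.11. The 4 higher genes were Psmd7, Psmc4, Psmd13 and Psmd5, and the call for Psmd13 ended when replicate 3 of the WT RA cells was left out (adjusted p = 0.0503). Without replicate 3 of the C48S undifferentiated cells 22 were lower, with Psmc5 and Psmg2 added, and 5 higher, with Psmd8 added. Of all genes 27.8% were lower and 30.1% higher in that fit. None of the immunoproteasome subunits passed the test, with Psmb8 at -0.26 ± 0.2, Psmb9 at -0.11 ± 0.17 and Psmb10 at -0.11 ± 0.18.

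The lowest ratio after RA was that of Psma8 (-1.22 ± 0.17 (SE), adjusted p = 6.93e-08), whose values above do not overlap between the lines. Psmb6 had 123, 119.9 and 115 CPM in C48S RA cells, against 216, 216 and 219 CPM in WT RA cells, again without overlap (-0.86 ± 0.066 (SE), adjusted p = 1.97e-11). Psme4 followed with -0.84 ± 0.045 (SE), adjusted p = 1.71e-17. Psmd7 was higher, at 109, 109 and 106 CPM in C48S RA cells, against 65.0, 63.0 and 60.5 CPM in WT RA cells (0.78 ± 0.059 (SE), adjusted p = 1.03e-13), and its libraries were wide apart. Psmd3 had 172, 163 and 162 CPM in C48S RA cells, against 265, 251 and 261 CPM in WT RA cells (-0.64 ± 0.047 (SE), adjusted p = 7.65e-14). Psmd12 had 85.3, 83.0 and 83.0 CPM in C48S RA cells, against 122, 104.4 and 116 CPM in WT RA cells (-0.44 ± 0.055 (SE), adjusted p = 2.06e-08). Neither lid gene overlapped between the lines. Psmb3 was lower as well (-0.60 ± 0.064 (SE), adjusted p = 8.85e-10). Psmd10, on the X chromosome, had 9.07, 11.2 and 10.4 CPM in C48S RA cells, against 15.0, 13.3 and 13.7 CPM in WT RA cells (-0.46 ± 0.13 (SE), adjusted p = 0.00404). In undifferentiated cells it had 15.1, 13.9 and 19.8 CPM in C48S and 15.6, 17.9 and 14.8 CPM in WT (0.0031 ± 0.13 (SE), adjusted p = 0.994), where the groups overlapped.

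Whether the lines responded differently was tested as an interaction, given here as the C48S change with RA less the WT change. It uses the same 12 libraries as the comparisons above. Of the 47 genes, 17 had a higher RA change in C48S and 8 a lower one, where 22.2% and 17.2% of all genes did (39.4% in either direction), and the median was 0.15, beside 0.023 over all genes. The largest among those that passed was Psmb10 (-1.63 ± 0.26 (SE), adjusted p = 4.55e-05), which rose in WT and fell in C48S. Psmg4 followed with 1.24 ± 0.19 (SE), adjusted p = 2.12e-06, and Psme2 (-1.14 ± 0.12 (SE), adjusted p = 2.39e-09) and Psme1 (-0.90 ± 0.11 (SE), adjusted p = 9.21e-09) came next, for all 3 of which the fitted RA change passed the test in WT alone. Psmd11 illustrates the genes that fell less in C48S. It had 194, 194 and 194 CPM in C48S RA cells, against 244, 256 and 296 CPM in C48S undifferentiated cells, and 249.4, 255 and 253 CPM in WT RA cells, against 501, 515 and 495 CPM in WT undifferentiated cells (0.55 ± 0.075 (SE), adjusted p = 2.28e-07). Of the 8 genes on chromosome 11, 6 had a higher change with RA in C48S and 0 had a lower one, with a median interaction of 0.38, where 26% of that chromosome's genes were higher and 21.2% lower, with a median of 0.043. The call for Psmd10 (-0.46 ± 0.18 (SE), adjusted p = 0.0441) was lost under 9 alternatives. Without replicate 3 of the C48S undifferentiated cells, the counts were 26 higher and 7 lower (23.6% and 18.4% of all genes), and all 8 genes of chromosome 11 were among the 26. The 9 genes added were Psma5, Psma7, Psmb1, Psmb4, Psmb5, Psmb6, Psmc3, Psmc5 and Psmd4, and the call for Psmd10 was lost. Without replicate 1 of the WT RA cells 5 were lower.

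Levels of different genes were compared per length, as RPKM (counts scaled to library size and exonic length). The exonic length is that of the gene model, 899 bases for Psmb5 and 4595 bases for Psmb1. It may differ from the length of the transcripts present, so ranks between genes are uncertain. Over the 14 core subunits the median was 33.3 RPKM in C48S RA cells, 41.5 RPKM in WT RA cells, 57.9 RPKM in C48S undifferentiated cells and 73.1 RPKM in WT undifferentiated cells. Over the 17 subunits of the regulatory particle it was 33.4 RPKM in C48S RA cells, 41.4 RPKM in WT RA cells, 49.6 RPKM in C48S undifferentiated cells and 73.9 RPKM in WT undifferentiated cells. The 7 assembly chaperones lay lower, with medians of 10.96 RPKM in C48S RA cells, 10.03 RPKM in WT RA cells, 11.1 RPKM in C48S undifferentiated cells and 14.1 RPKM in WT undifferentiated cells. The highest core gene was Psmb5 in both C48S groups and Psmb6 in both WT groups, at 79.3 RPKM in C48S RA cells, 115.9 RPKM in WT RA cells, 120.6 RPKM in C48S undifferentiated cells and 189 RPKM in WT undifferentiated cells. In replicates 1 and 2 of the C48S undifferentiated cells Psmb5 had 107 and 103 RPKM, and Psma6 had 103 and 107 RPKM. Not scaled to length, Psmb5 had a mean of 108 CPM in C48S undifferentiated cells, below the 172 CPM of Psmb6.

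Each inducible subunit was also set against the constitutive one it replaces, as a ratio of RPKM values. The size of a ratio depends on the exonic lengths, such as 3381 bases for Psmb8 and 899 bases for Psmb5, whereas its change between groups does not. The ratio of Psmb8 to Psmb5 was 0.0180 to 0.0296 in C48S RA cells and 0.0227 to 0.0351 in WT RA cells. It was 0.000306 to 0.00162 in C48S undifferentiated cells and 0.000220 to 0.000355 in WT undifferentiated cells. For Psmb9 to Psmb6 it was 0.0299 to 0.0327 in C48S RA cells, 0.0153 to 0.0206 in WT RA cells, 0.00285 to 0.00500 in C48S undifferentiated cells and 0.000899 to 0.00132 in WT undifferentiated cells. Both ratios were thus far below 1 in every library. The ratio of Psmb10 to Psmb7 was 0.305 to 0.322 in C48S RA cells, 0.246 to 0.2996 in WT RA cells, 0.229 to 0.342 in C48S undifferentiated cells and 0.0701 to 0.0914 in WT undifferentiated cells. The activator subunits were nearer to equal: the ratio of Psme2 to Psme1 was 0.859 to 0.893 in C48S RA cells, 0.910 to 1.01 in WT RA cells, 0.727 to 0.816 in C48S undifferentiated cells and 0.681 to 0.753 in WT undifferentiated cells. An exact two-sided permutation test of 3 against 3 libraries cannot go below p = 0.10, which adjusted over the 16 tests made is 0.133, so none could pass 0.05. That smallest p was reached where the ranges do not overlap.

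Genes that work with the proteasome were read from lists. Of 20 partners outside the symbol rule, 16 fell and 1 rose with RA in both lines, where of all genes 34.6% fell and 39% rose in C48S and 37.4% fell and 40.9% rose in WT. Usp14, the deubiquitinase bound to the regulatory particle, changed by -0.65 ± 0.05 in C48S and -1.13 ± 0.05 in WT, and the ubiquitin receptor Adrm1 by -0.82 ± 0.062 in C48S and -1.25 ± 0.063 in WT. Both passed the test in both lines. The one that rose was Ecpas, a proteasome-binding scaffold (0.48 ± 0.059 in C48S and 0.41 ± 0.057 in WT). In undifferentiated cells 11 of the 20 were lower and 3 higher in C48S than in WT (28.1% and 27.5% of all genes). The higher ones included Sem1, a small lid subunit on chromosome 6 (1.14 ± 0.2, beside a median of 0.58 for that chromosome), and Ubqln2 (0.41 ± 0.066). Sem1 had 44.5, 35.6 and 66.5 CPM in C48S undifferentiated cells, the highest in replicate 3, against 23.1, 22.8 and 20.6 CPM in WT. After RA 5 of the 20 were lower and 6 were higher (25.7% and 28.8% of all genes). Of 6 ubiquitin and E1 genes, 5 fell with RA in both lines, where 34.6% of all genes fell in C48S and 37.4% in WT. Between the lines 4 were lower and 1 was higher in C48S undifferentiated cells (28.1% and 27.5% of all genes), and 1 was lower and 2 were higher after RA (25.7% and 28.8% of all genes). Rps27a, which encodes ubiquitin fused to a ribosomal protein, was lower in C48S in both states (-0.81 ± 0.076 in RA cells and -0.76 ± 0.074 in undifferentiated cells), below the medians of chromosome 11, on which it lies, and ribosomal protein genes have many near copies.

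Of 14 genes that control proteasome transcription, 10 fell and 2 rose with RA in C48S (34.6% and 39% of all genes), and 8 fell and 4 rose in WT (37.4% and 40.9% of all genes). Nfe2l1, the factor that raises subunit genes when proteasome activity is short, lies on chromosome 11. It changed with RA by -0.79 ± 0.047 (SE), adjusted p = 7.83e-17 in C48S and -1.09 ± 0.046 (SE), adjusted p = 3e-21 in WT, and C48S over WT by -0.46 ± 0.048 in RA cells and -0.75 ± 0.046 in undifferentiated cells. Mafg, a partner of such factors, changed with RA by -0.95 ± 0.065 in C48S and -1.66 ± 0.066 in WT. Irf1, an interferon-responsive activator of the immunoproteasome genes, rose by 0.21 ± 0.07 (SE), adjusted p = 0.00853 in C48S and 1.44 ± 0.073 (SE), adjusted p = 4.73e-19 in WT. In undifferentiated cells Irf1 was higher in C48S (0.70 ± 0.076 (SE), adjusted p = 8.39e-10), and after RA it was lower (-0.53 ± 0.067 (SE), adjusted p = 2.45e-08). Irf1 lies on chromosome 11 too, whose median was -0.48 in RA cells and -0.53 in undifferentiated cells. Of the 14 genes, 4 were higher and 4 lower in C48S undifferentiated cells, which is close to the 27.5% and 28.1% of all genes. After RA 4 were higher and 5 lower, where 28.8% and 25.7% of all genes were.

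Of 12 genes of class I antigen processing, 6 rose and 2 fell with RA in C48S (39% and 34.6% of all genes), and 9 rose and 2 fell in WT (40.9% and 37.4% of all genes). The class I heavy chain gene H2-K1 rose by 1.63 ± 0.065 in C48S and 2.98 ± 0.063 in WT, and H2-D1 by 0.95 ± 0.072 in C48S and 2.05 ± 0.077 in WT. These heavy chain genes resemble each other, so their counts are uncertain. Tapbp, which encodes the loading factor tapasin, rose by 2.04 ± 0.065 (SE), adjusted p = 3.4e-25 in WT and changed by -0.10 ± 0.058 (SE), adjusted p = 0.104 in C48S. In undifferentiated cells 2 of the 12 were lower and 6 higher in C48S (28.1% and 27.5% of all genes), the higher ones including Tapbp (1.58 ± 0.066) and the light chain gene B2m (0.96 ± 0.072). After RA 3 were higher and 6 lower (28.8% and 25.7% of all genes).

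Promoter windows of 250 bases before to 50 after the start were found in RefSeq (GRCm38.p6) for 40 of the 48 genes, and 5 motifs were searched on both strands in these and in all 32851 windows. TGACNNNGC, the core of the antioxidant response element through which Nfe2l1 and Nfe2l2 act, matched 6 members, or 15%, beside 12.4% of all windows. CCAAT matched 35% of members and 37.4% of all windows. The STAT letters TTCNNNGAA matched 7.5% of members and 8.30% of all windows, and a retinoic acid receptor repeat, GGTCA repeated after 5 free bases, matched 0 of 40 members and 0.0761% of all windows. An interferon-regulatory factor element, read as GAAA, 2 free bases and GAAA, matched 5 members, or 12.5%, beside 3.44% of all windows. Only one pair of matches overlapped, both of CCAAT in Psmd14. A match describes letters in a window and shows no binding. The 6 matches to TGACNNNGC are shown with their flanks because 3 of them, those of Psmb6, Psmd12 and Psme4, belong to genes of chromosome 11. They are printed on the strand of the gene with the match in capitals, which reads GCNNNGTCA where it lies on the other strand.
Psmb5 chr14:54618024-54618052: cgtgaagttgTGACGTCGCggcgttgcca
Psmb6 chr11:70525338-70525366: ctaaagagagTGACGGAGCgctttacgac
Psmc6 chr14:45329587-45329615: ccagccagtaGCTAAGTCAggcattgctc
Psmd9 chr5:123228149-123228177: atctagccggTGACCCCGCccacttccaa
Psmd12 chr11:107479278-107479299: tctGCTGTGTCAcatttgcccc
Psme4 chr11:30771758-30771786: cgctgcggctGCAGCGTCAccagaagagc
The 5 matches to the interferon-regulatory factor element follow in the same way, with TTTC in place of GAAA where they lie on the other strand. Before RA Psme1 was higher in C48S than in WT, while Psmb3, Psmg4 and Psmd4 (means of 165 and 208 CPM) were lower and Psmd9 had no call. Psmb3, Psmd4 and Psmd9 fell with RA in both lines, as most members did.
Psmb3 chr11:97703261-97703290: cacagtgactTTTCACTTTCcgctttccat
Psmd4 chr3:95042675-95042704: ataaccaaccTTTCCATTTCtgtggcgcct
Psmd9 chr5:123228021-123228050: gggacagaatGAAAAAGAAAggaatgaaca
Psme1 chr14:55578493-55578522: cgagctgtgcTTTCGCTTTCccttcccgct
Psmg4 chr13:34162969-34162998: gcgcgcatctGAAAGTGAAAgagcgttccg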

How the data were processed

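Libraries were made from rRNA-depleted total RNA, per the labels' protocols. The deposited values are raw counts per gene, made by the authors with featureCounts 1.6.3 on read pairs with strand option 2 and Ensembl release 104 models of GRCm39, per the file headers. STAR 2.7.9a and mm39 are named in the submitters' processing notes. Read pairs that map to near-identical copies may be lost. Gene names and biotypes came from GENCODE M21 by identifier (52083 of 55416 named). The tests used edgeR 4.0.16 (R 4.3.3), with TMM scaling, genes kept by filterByExpr at a minimum count of 10, and 1 robust quasi-likelihood fit of 4 group means to all 12 libraries (8 residual degrees of freedom, 17940 genes, Benjamini-Hochberg adjusted p under 0.05). CPM used TMM-scaled totals, and RPKM the exonic lengths in the files. Log2 changes carry the standard error of that fit. The fit was tested on simulated data. Alternatives were RLE scaling, TMM from genes off chromosomes 6, 8, 11 and Y, DESeq2 1.42.0, low-count filters, protein-coding genes alone, the compared groups alone, a 1.5-fold null, a replicate block and each library left out. The members and lists were chosen with earlier results of these data known. All members were accounted for. Values in every library are given for the 8 largest called changes of each comparison, the immunoproteasome, activator and inhibitor genes, and examples on chromosomes 8 and 11. From the other lists, genes with the smallest adjusted p, or those of short counts, are named.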

Additional observations from a re-analysis of the deposited data

Results flagged for a closer look

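For 25 of the 47 tested proteasome genes the RA change differed between C48S and WT by the interaction test (adjusted p under 0.05 over all genes). Of all 17940 genes tested, 39.4% differed, 22.2% with a higher and 17.2% with a lower change in C48S. Each difference is the C48S change less the WT change on the log2 scale. The calls for Psma8, Psmc2, Psmc4, Psmd5, Psmd10 and Psmg2 were lost under DESeq2. The difference was -1.63 for Psmb10, -1.14 for Psme2, -0.90 for Psme1, -0.64 for Psma8, -0.46 for Psmd10, -0.40 for Psmf1, -0.35 for Psmd8 and -0.21 for Psmb2. It was positive for the other 17 genes. Among subunits of the regulatory particle it was 0.22 for Psmc1, 0.23 for Psmd1, 0.26 for Psmc4, 0.27 for Psmc2, 0.32 for Psmd7, 0.32 for Psmd3, 0.51 for Psmd12 and 0.55 for Psmd11. In the core it was 0.26 for Psma3, 0.36 for Psma6 and 0.45 for Psmb3, and among activators 0.25 for Psme3 and 0.43 for Psme4. Among assembly chaperones it was 0.26 for Psmd5, 0.43 for Psmg1, 0.43 for Psmg2 and 1.24 for Psmg4. Replicate 3 of the C48S undifferentiated cells, in which proteasome genes lay a median of 0.24 above replicates 1 and 2, enters all 25 values.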

How the results depend on the processing

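No called change of a member reversed under the alternatives run. Of the 170 changes called for single members, 154 were never lost under the 20 alternatives other than a null of a 1.5-fold change. The other 16 were lost under at least one. The fit of the compared groups alone did not cover the interaction and was run for 145 of the 170. With a null of a 1.5-fold change, 67 of the 170 changes passed and 103 were lost. For C48S against WT in undifferentiated cells 7 members were then lower and 3 higher, where 1932 and 1673 of all 17940 genes were. After RA 3 were lower and 1 higher, where 1532 and 1420 of all genes were. For RA in C48S 14 were lower, where 2510 of all genes were. For the interaction 3 were lower and 1 higher, where 891 and 1366 of all genes were. The rest of the 67 were changes with RA in WT or rises with RA in C48S. Leaving out each library in turn gave 26 to 31 lower and 7 to 9 higher in undifferentiated cells, 18 to 22 lower and 3 to 5 higher after RA, 40 to 41 lower and 2 to 3 higher for RA in C48S, and 37 to 39 lower and 5 higher for RA in WT. For the interaction it gave 15 to 26 higher, the most without replicate 3 of the C48S undifferentiated cells, and 5 to 8 lower, the fewest without replicate 1 of the WT RA cells. The shares of all genes called in the main fit are given with each comparison above. Same-numbered libraries of different groups did not deviate together (correlations of -0.053 to 0.029), and the main fit did not pair them. With 3 libraries per group this cannot show whether same-numbered libraries shared a culture or preparation. With the replicate number as a block, 29 were lower and 7 higher in undifferentiated cells, where 4995 and 4863 of all genes were. After RA 21 were lower and 4 higher, where 4550 and 5088 of all genes were. For RA in C48S 40 were lower and 2 higher (6168 and 6924 of all genes). For RA in WT 38 were lower and 5 higher (6671 and 7298 of all genes). For the interaction 19 were higher and 7 lower (3921 and 3017 of all genes). Of the named changes, the call for Psmd10 in the interaction was lost under the block and under DESeq2 (adjusted p = 0.0553 and 0.0962). DESeq2 also ended the calls of Psma8, Psmc2, Psmc4, Psmd5 and Psmg2 in the interaction and that of Psmg3 for RA in WT, and the causes were not tested. Depth limits the inducible genes: Psmb8 in undifferentiated cells rests on 14 counts in C48S and 4 in WT.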
